A study of Homo sapiens with 16 samples.

Results

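The SLC37 and SLC35A genes encode membrane carriers that move sugar phosphates and nucleotide sugars across the membranes of the endoplasmic reticulum and the Golgi. The account below covers the 4 SLC37 genes (SLC37A1 to SLC37A4) and the 5 SLC35A genes (SLC35A1 to SLC35A5), 9 of the 61906 genes in the deposited short-read tables, and their 127 of 251295 listed transcripts. They were taken by gene symbol. SLC37A4 and SLC35A5 had been picked because their level was lower after HNRNPH1 knockdown in both cell lines, so their response to the siRNA is described here with no test. The other 7 genes, called the relatives here, were taken by family name, and the question was whether they fell too.

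SLC37A4 is the glucose-6-phosphate transporter of the endoplasmic reticulum, which hands its substrate to the glucose-6-phosphatases, and its loss causes glycogen storage disease type Ib. SLC37A1 and SLC37A2 are related phosphate-linked antiporters, and SLC37A3 works with ATRAID in the release of bisphosphonate drugs from lysosomes. Among the Golgi nucleotide sugar transporters, SLC35A1 carries CMP-sialic acid, SLC35A2 carries UDP-galactose and SLC35A3 carries UDP-N-acetylglucosamine, the donors for the branches and ends of glycans. SLC35A4 and SLC35A5 belong to the same Golgi family, and their substrates are less settled. HNRNPH1, the target of the siRNA, is a nuclear protein that binds G-rich RNA and takes part in splice site choice.

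The cells were HEK-293T, an established line of embryonic kidney origin with the large T antigen of SV40, and HT-1080, an established line from a fibrosarcoma. Each line was transfected with 20 nM of an siRNA against HNRNPH1 (siHNRNPH1) or of a negative control siRNA (siNegative), and RNA was taken 48 h later, so all 4 groups share the transfection. There were 3 short-read libraries in each group, which the labels call biological replicates, and 1 pool of full-length cDNA (IsoSeq) in each group. Only 1 time and 1 dose were sampled, and the labels do not say how many siRNA sequences were used.

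Total expected counts were 107.7 to 121.0 M (mega) in the 6 HEK-293T libraries and 27.3 to 32.7 M in the 6 HT-1080 libraries. Levels are given as CPM, the expected count for each M of counts in the library, which is not scaled for transcript length and so does not rank genes against each other. Of the markers listed for each line, 5 of 6 for HT-1080 were higher in every HT-1080 library than in any HEK-293T library, and 4 of 5 for HEK-293T were higher in every HEK-293T library. The exceptions were THY1, at or near 0 in both lines, and NEFL, whose ranges overlapped. The summed level of PTPRC, PECAM1 and ALB, markers of other cell types, reached at most 0.279 CPM in any library. In these bulk samples, fewer cells of a type and less RNA per cell cannot be told apart.

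HNRNPH1 itself was measured at 1107, 1105 and 1121 CPM in the HEK-293T siNegative libraries and at 234.1, 376.2 and 394.3 CPM in the siHNRNPH1 libraries. In HT-1080 it was at 634.6, 605.8 and 617.2 CPM with siNegative and at 231.5, 231.0 and 228.5 CPM with siHNRNPH1. The mean was therefore 30.1% of the control in HEK-293T and 37.2% in HT-1080, and the groups did not overlap in either line. Changes were tested with edgeR's quasi-likelihood test, and adjusted p-values are Benjamini-Hochberg adjusted over all genes tested, with a threshold of 0.05. The fitted log2 fold change was -1.76 ± 0.20 (SE, adjusted p = 0.00939) in HEK-293T and -1.49 ± 0.04 (adjusted p = 6.76e-09) in HT-1080. In HEK-293T, siHNRNPH1 replicate 1 stood apart. Across 16072 genes its log2 CPM correlated with those of replicates 2 and 3 at r = 0.946 and 0.941, against 0.994 or more in every other pair of the same group, and it had the lowest HNRNPH1 level of its line. Short-read tests in HEK-293T are therefore given with and without this library.

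SLC37A4 (ENSG00000137700.19) was lower after knockdown by nearly the same proportion in both lines. In HEK-293T it was at 94.6, 94.7 and 98.9 CPM with siNegative and at 24.1, 22.0 and 22.8 CPM with siHNRNPH1. In HT-1080 the siNegative libraries were at 29.3, 29.5 and 27.5 CPM and the siHNRNPH1 libraries at 7.40, 6.68 and 7.38 CPM. Every siHNRNPH1 library was below every siNegative library of its line, and HEK-293T replicate 1 did not stand out for this gene. The mean was 23.9% of the control in HEK-293T, 23.3% without replicate 1, and 24.9% in HT-1080. The fitted log2 fold changes were -2.09 in HEK-293T (-2.16 without replicate 1) and -2.08 in HT-1080, and their difference between the lines, HT-1080 minus HEK-293T, was -0.06, or 0.06 when libraries were scaled by their totals alone. This was the 80th lowest of 19966 tested genes in HEK-293T and the 167th lowest of 16145 in HT-1080. The order of the groups, from high to low, was HEK-293T siNegative, HT-1080 siNegative, HEK-293T siHNRNPH1 and HT-1080 siHNRNPH1, with no overlap between neighbours.

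SLC35A5 (ENSG00000138459.9) was lower still relative to its control. With siNegative it was at 40.4, 39.9 and 39.5 CPM in HEK-293T, and with siHNRNPH1 at 4.70, 7.64 and 8.04 CPM. HT-1080 had 48.1, 45.6 and 46.3 CPM with siNegative and 10.7, 10.3 and 9.83 CPM with siHNRNPH1. The groups were far apart in both lines, and the lowest of the 12 values came from HEK-293T siHNRNPH1 replicate 1, the library with the least HNRNPH1 of its line. The mean was 17.0% of the control in HEK-293T, 19.6% without replicate 1, and 22.0% in HT-1080. Log2 fold changes were -2.59 in HEK-293T (-2.41 without replicate 1) and -2.25 in HT-1080, the 24th lowest of 19966 and the 127th lowest of 16145 genes. From high to low, the groups ran HT-1080 siNegative, HEK-293T siNegative, HT-1080 siHNRNPH1 and HEK-293T siHNRNPH1, again with no overlap between neighbours.

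**Figure D1:**
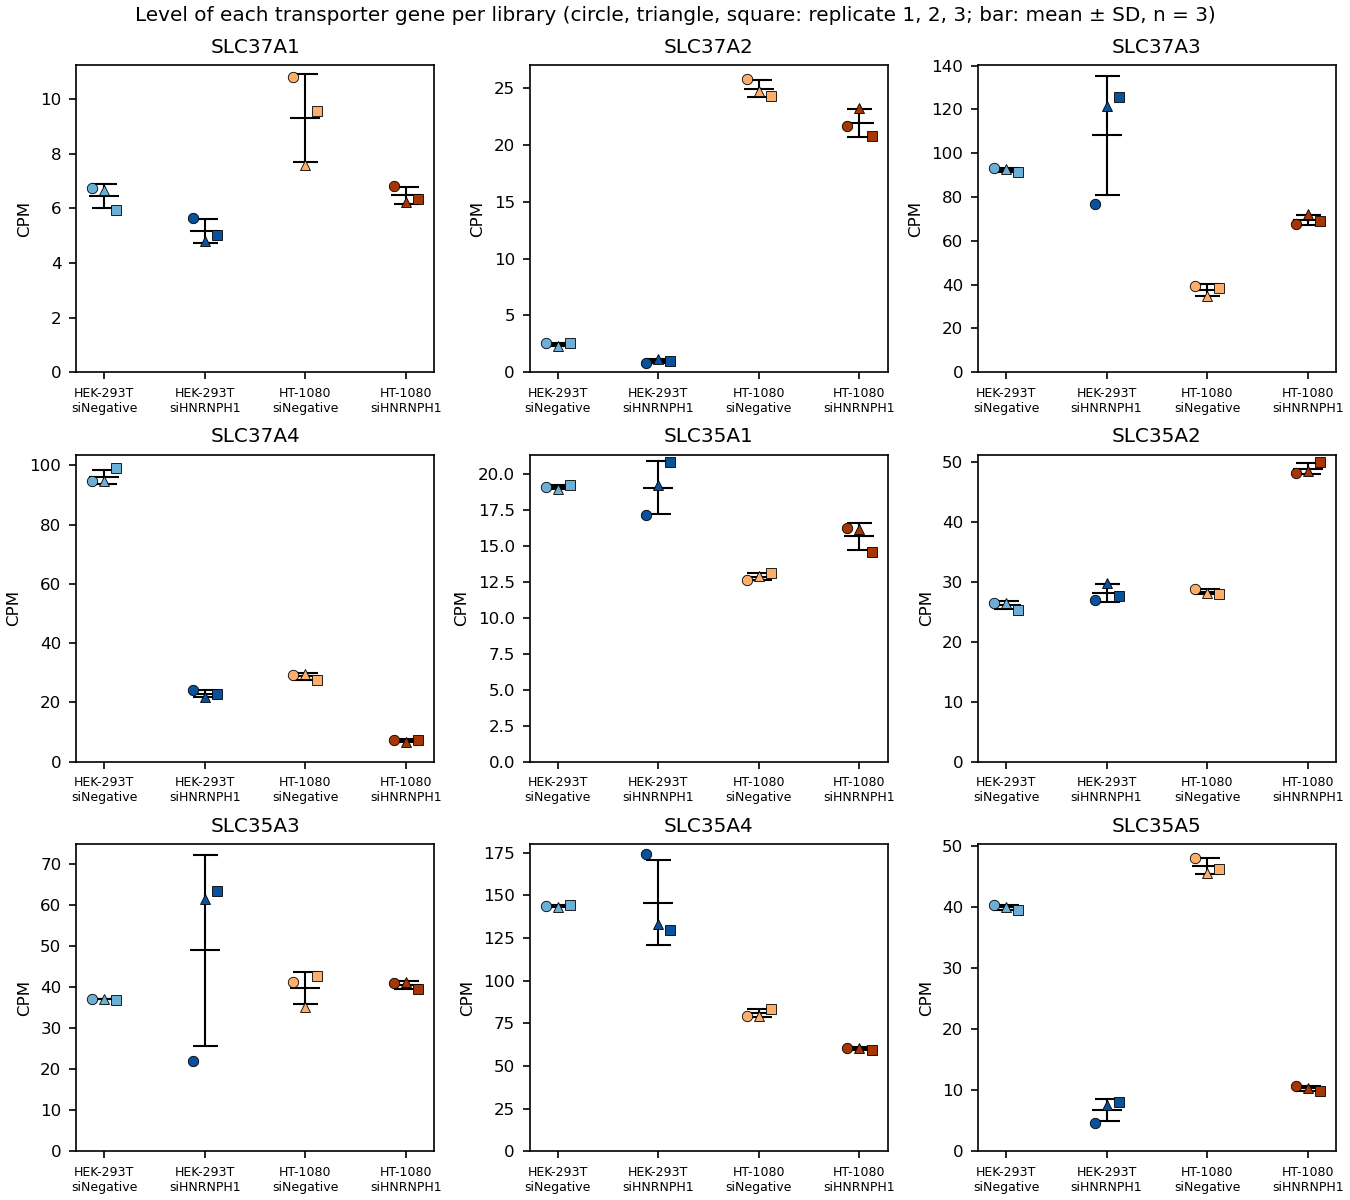
Level of each of the 9 genes (CPM, y axis) in the 12 short-read libraries, by group on the x axis, with 1 point per library (circle, triangle and square for replicates 1, 2 and 3) and bars for the mean ± SD (n = 3). SLC37A4 and SLC35A5 are lower in every siHNRNPH1 library than in any siNegative library of the same line, while the relatives keep 40.2% to 185% of their control means.

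The relatives did not share this size of fall. In HEK-293T, 1 of the 7 relatives passed the test, SLC37A2, which was lower, and 0 were higher. Of all 19966 genes tested there, 10.0% passed, 5.12% as higher and 4.88% as lower. The median log2 fold change of the 7 was -0.0025, against 0.02 for all genes tested. Without siHNRNPH1 replicate 1, 5 of the 7 passed, 2 higher and 3 lower, where 61.8% of all genes passed. In HT-1080, 6 of the 7 passed, 3 higher and 3 lower, where 65.3% of all genes passed. Their median log2 fold change was -0.04, against 0.01 for all genes. By the libraries alone, 2 relatives in HEK-293T (SLC37A1 and SLC37A2) and 3 in HT-1080 (SLC37A1, SLC37A2 and SLC35A4) had all siHNRNPH1 libraries below all siNegative libraries, a pattern seen in 21.0% and 30.6% of all genes. The reverse held for 1 relative in HEK-293T (SLC35A2) and for 3 in HT-1080 (SLC37A3, SLC35A1 and SLC35A2), against 22.7% and 39.9% of all genes.

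**Figure D2:**
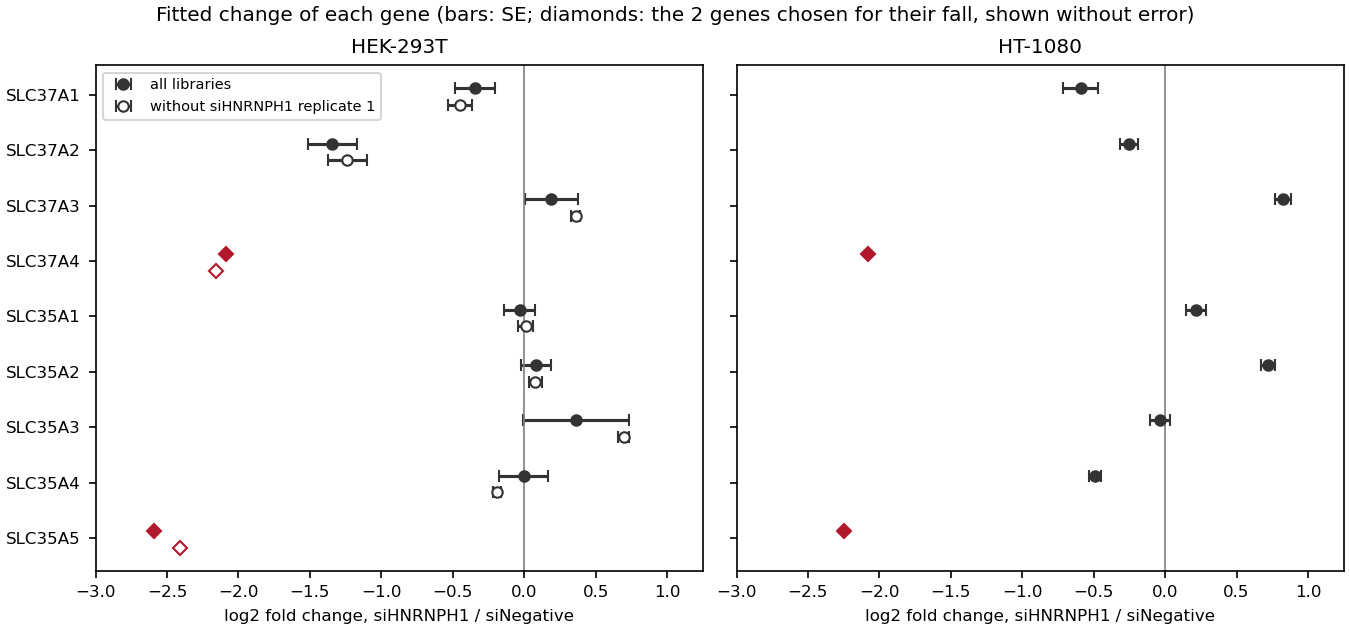
Log2 fold change of each gene, siHNRNPH1 over siNegative (x axis), in HEK-293T (left; open symbols without siHNRNPH1 replicate 1) and HT-1080 (right). Bars are SE derived from the F statistic of the quasi-likelihood test, and red diamonds are the 2 genes picked for their fall, shown with no error. The relatives lie between -1.34 and 0.82, SLC37A4 and SLC35A5 at -2.08 or below.

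**Figure D3:**
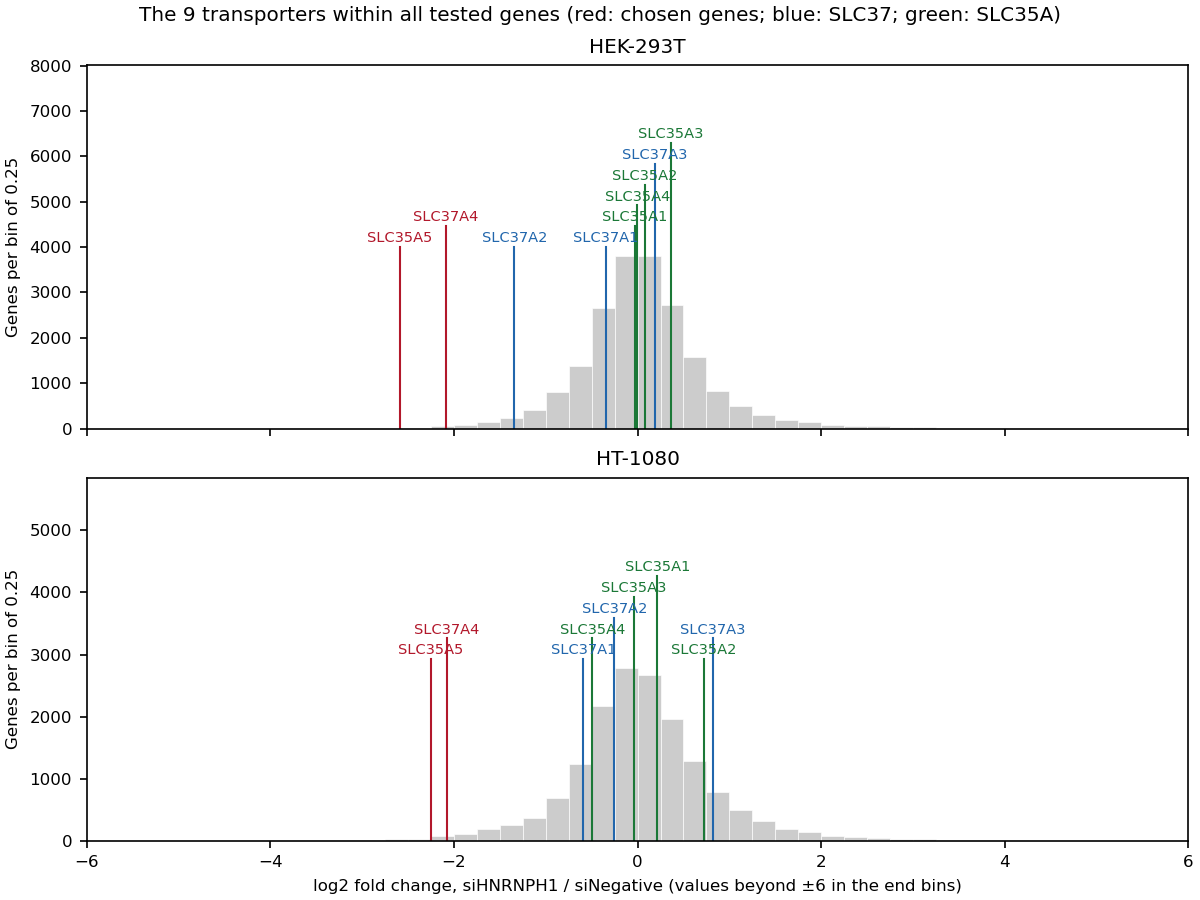
Number of tested genes (y axis) in each bin of log2 fold change (x axis) in HEK-293T and HT-1080, with a line at the value of each of the 9 genes (red for the 2 picked genes, blue for the other SLC37 genes, green for the other SLC35A genes). SLC37A4 and SLC35A5 lie in the lower tail, within the lowest 1.03% of genes, and the relatives are spread on both sides of 0.

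Within the SLC37 family, SLC37A1 and SLC37A2 were lower and SLC37A3 was higher in HT-1080. SLC37A2 (ENSG00000134955.12) is the relative whose response was closest in size to that of SLC37A4, in HEK-293T, where its level was low. Its HEK-293T values were 2.54, 2.32 and 2.53 CPM with siNegative and 0.807, 1.20 and 0.965 CPM with siHNRNPH1, which rest on 270 to 306 and 87 to 145 counts. The groups did not overlap, and the fitted log2 fold change was -1.34 ± 0.17 (adjusted p = 0.0112), or -1.24 ± 0.14 (adjusted p = 4.58e-08) without siHNRNPH1 replicate 1. The call did not survive the removal of siNegative replicate 1, 2 or 3, with adjusted p-values of 0.0883, 0.0812 and 0.0896. Some of the HEK-293T fits that leave out 1 library called no gene at all, as given in the last section. This loss need not be particular to SLC37A2. In HT-1080 the gene was far higher, at 25.8, 24.8 and 24.3 CPM with siNegative and 21.7, 23.3 and 20.8 CPM with siHNRNPH1. There the groups stood close but apart, with a log2 fold change of -0.25 ± 0.06 (adjusted p = 0.00492, or 0.0992 in a fit of all 12 libraries). The change was 1.02 ± 0.16 higher on the log2 scale in HT-1080 than in HEK-293T (interaction in edgeR, adjusted p = 0.00146), so the fall was smaller there.

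SLC37A1 (ENSG00000160190.14) showed smaller differences in the same direction. In HEK-293T it was at 6.73, 6.69 and 5.94 CPM with siNegative and 5.64, 4.81 and 5.04 CPM with siHNRNPH1, without overlap, and its log2 fold change of -0.34 ± 0.14 did not pass the test (adjusted p = 0.187). Without siHNRNPH1 replicate 1 it was -0.45 ± 0.08 (adjusted p = 6.23e-05). In HT-1080 it fell from 10.8, 7.60 and 9.55 CPM to 6.82, 6.25 and 6.36 CPM, a log2 fold change of -0.59 ± 0.12 (adjusted p = 0.00207). The siNegative libraries of HT-1080 varied most here, and even the lowest of them was above all siHNRNPH1 libraries.

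SLC37A3 (ENSG00000157800.18), the lysosomal member, went the other way. In HT-1080 it rose from 39.6, 34.7 and 38.4 CPM to 67.6, 72.1 and 68.9 CPM, with a log2 fold change of 0.82 ± 0.06 (adjusted p = 1.27e-06), and the groups were far apart. In HEK-293T it was at 93.1, 92.9 and 91.4 CPM with siNegative and at 76.9, 121.7 and 125.7 CPM with siHNRNPH1. Replicate 1 lay below all controls and replicates 2 and 3 above them, so that the log2 fold change was 0.19 ± 0.19 (adjusted p = 0.566) with it and 0.36 ± 0.03 (adjusted p = 1.02e-09) without it. The level in HEK-293T controls was above that in either HT-1080 group.

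Among the SLC35A genes, SLC35A2, the UDP-galactose carrier, rose in HT-1080, SLC35A1, the CMP-sialic acid carrier, was slightly higher there, and SLC35A4 fell. SLC35A2 (ENSG00000102100.16) was at 28.8, 28.2 and 28.1 CPM with siNegative and at 48.3, 48.6 and 50.04 CPM with siHNRNPH1 in HT-1080, a log2 fold change of 0.72 ± 0.05 (adjusted p = 8.40e-07). In HEK-293T it was at 26.6, 26.6 and 25.3 CPM and at 27.1, 29.8 and 27.6 CPM, a log2 fold change of 0.08 ± 0.10 (adjusted p = 0.671). Its knockdown libraries were thus well above the controls in HT-1080 and only just above them in HEK-293T. The change was 0.57 ± 0.11 higher on the log2 scale in HT-1080 than in HEK-293T (interaction, adjusted p = 0.00421).

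SLC35A1 (ENSG00000164414.19) was at 12.6, 12.9 and 13.1 CPM with siNegative and at 16.2, 16.1 and 14.6 CPM with siHNRNPH1 in HT-1080. The groups were apart, and the log2 fold change was 0.22 ± 0.07 (adjusted p = 0.0201). This call was the least stable of the relatives. It was lost without the filter on low counts (adjusted p = 0.0569), with DESeq2 (0.0587), in a fit of all 12 libraries (0.0962), and without siNegative replicate 1 (0.0703), siHNRNPH1 replicate 1 (0.0796) or siHNRNPH1 replicate 2 (0.0786). In HEK-293T the siNegative libraries were at 19.1, 19.0 and 19.2 CPM and the siHNRNPH1 libraries at 17.1, 19.2 and 20.8 CPM, spread around the controls, with a log2 fold change of -0.03 ± 0.11 (adjusted p = 0.879).

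SLC35A3 (ENSG00000117620.15), the UDP-N-acetylglucosamine carrier, differed widely between the HEK-293T knockdown libraries. It was at 37.1, 37.1 and 36.9 CPM with siNegative and at 22.1, 61.5 and 63.3 CPM with siHNRNPH1, replicate 1 lying far below the controls and the others far above. The log2 fold change was 0.36 ± 0.37 (adjusted p = 0.585), and 0.70 ± 0.04 (adjusted p = 1.51e-13) without replicate 1. In HT-1080 the values were 41.2, 35.2 and 42.6 CPM with siNegative and 40.9, 41.2 and 39.4 CPM with siHNRNPH1. These overlapped, with a log2 fold change of -0.04 ± 0.07 (adjusted p = 0.657), which became -0.12 (adjusted p = 0.0201) without siNegative replicate 2, the lowest control.

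SLC35A4 (ENSG00000176087.16) was at 144.0, 143.4 and 144.6 CPM with siNegative and at 174.3, 133.1 and 129.6 CPM with siHNRNPH1 in HEK-293T. Here replicate 1 was above the controls and the others were below, the reverse of SLC37A3 and SLC35A3. The means of the groups were 144.0 and 145.7 CPM with replicate 1 (adjusted p = 0.995), and the log2 fold change was -0.19 ± 0.03 (adjusted p = 7.41e-06) without it. In HT-1080 it fell from 79.5, 79.6 and 83.6 CPM to 60.8, 60.8 and 59.3 CPM, a log2 fold change of -0.49 ± 0.04 (adjusted p = 6.94e-06), with no overlap.

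The difference of the changes between the lines was tested for the 7 relatives with a cell line by siRNA interaction over all 12 libraries. It passed for 2 of them, SLC37A2 and SLC35A2, both with a higher value in HT-1080, where 19.0% of all genes passed, 8.13% higher and 10.8% lower in HT-1080. SLC37A3 (0.57 ± 0.19, adjusted p = 0.0574) and SLC35A4 (-0.57 ± 0.20, adjusted p = 0.0673) missed the threshold. Without HEK-293T siHNRNPH1 replicate 1, 5 passed, 2 lower and 3 higher in HT-1080, where 49.0% of all genes passed, 22.7% higher and 26.4% lower. The 3 additional genes were SLC37A3 (0.41 ± 0.07, adjusted p = 9.90e-05), SLC35A3 (-0.78 ± 0.08, adjusted p = 4.99e-07) and SLC35A4 (-0.35 ± 0.06, adjusted p = 5.74e-05). SLC37A3 and SLC35A4 also passed without siHNRNPH1 replicate 2 (adjusted p = 0.0429 and 0.0387) or replicate 3 (0.0259 and 0.0252).

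The control levels of the 7 relatives differed between the lines for all 7, 4 higher and 3 lower in HT-1080, where 86.6% of all genes differed, 40.8% higher and 45.8% lower. HT-1080 was higher for SLC37A1 (log2 difference 0.78 ± 0.11, adjusted p = 9.93e-05), SLC37A2 (3.59 ± 0.06, 1.58e-11), SLC35A2 (0.37 ± 0.05, 2.68e-05) and SLC35A3 (0.35 ± 0.06, 0.000465). HEK-293T was higher for SLC37A3 (-1.05 ± 0.05, 2.23e-08), SLC35A1 (-0.32 ± 0.05, 0.000175) and SLC35A4 (-0.58 ± 0.04, 3.56e-07). For SLC37A4 and SLC35A5, whose control libraries were part of the contrast that picked them, the log2 differences were -1.49 and 0.48, given without a test. The median of all genes in this comparison was -0.10, and -0.36 when libraries were scaled by their totals alone. Under that scaling the SLC35A3 difference was 0.10 and did not pass (adjusted p = 0.178). Cell line, sequencing depth and table cannot be told apart here. Within the SLC37 family the lines thus differed in opposite directions before knockdown, SLC37A1 and SLC37A2 being higher in HT-1080 and SLC37A3 in HEK-293T.

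At the transcript level, SLC37A4 also changed its make-up in HEK-293T. Of its 27 listed transcripts, 4 held at least 10% of the gene's expected counts in the mean of some group. ENST00000527992.5 held 29.6%, 28.9% and 28.9% of the gene in the HEK-293T siNegative libraries and 0.0%, 0.0% and 3.17% in the siHNRNPH1 libraries. ENST00000697849.1 went the other way, from 1.58%, 1.62% and 1.26% to 18.2%, 24.7% and 27.8%. Both pairs of groups were apart, with differences of means of -28.1 and 22.1 percentage points. On the CPM scale, ENST00000697849.1 was at 1.43 ± 0.16 CPM (SD, n = 3) with siNegative and at 5.38 ± 0.97 CPM with siHNRNPH1, the only named transcript of this gene with a higher mean level after knockdown in HEK-293T. ENST00000330775.9 held 32.6% ± 1.6 and 32.6% ± 8.3 of the gene and ENST00000532085.1 held 21.8% ± 0.8 and 22.5% ± 6.2, with overlapping ranges. Both of these were lower on the CPM scale, from 31.3 ± 2.0 to 7.55 ± 2.28 CPM and from 20.9 ± 1.0 to 5.13 ± 1.22 CPM.

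No HT-1080 library showed this exchange of shares. ENST00000527992.5 held 40.5%, 38.4% and 45.2% of SLC37A4 with siNegative and 0.0%, 40.9% and 0.0% with siHNRNPH1. In the same 3 knockdown libraries ENST00000330775.9 held 53.2%, 0.0% and 54.5%, against 20.8%, 29.7% and 18.4% in the controls. Replicate 2 thus gave to the first of these transcripts what replicates 1 and 3 gave to the second, with gene totals of 218 counts or fewer, and the groups overlapped for both. ENST00000697849.1 was at 0.0% in every HT-1080 library except siHNRNPH1 replicate 2, where it held 12.4%. How the authors' counting divided reads between these transcripts was not tested.

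**Figure D4:**
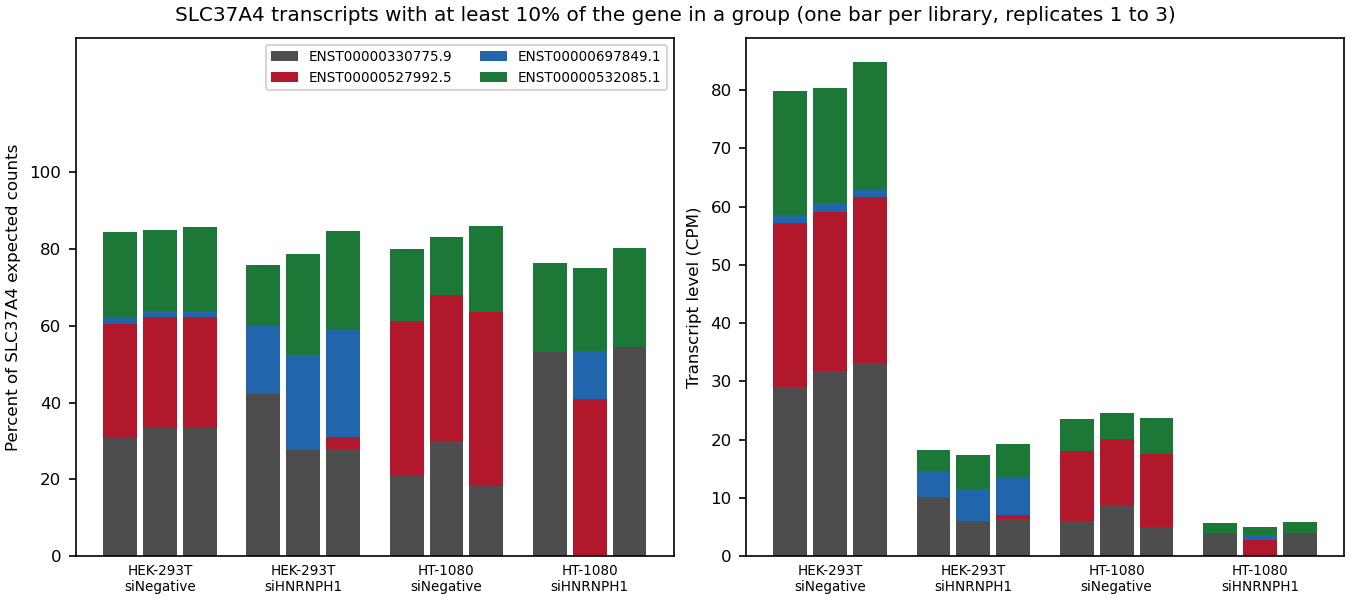
The 4 named SLC37A4 transcripts as a percent of the gene's expected counts (left) and as transcript CPM (right), with 1 stacked bar per library in replicate order within each group. ENST00000527992.5 is at 3.17% or less and ENST00000697849.1 at 18.2% or more in the HEK-293T siHNRNPH1 libraries, and the 3 HT-1080 siHNRNPH1 bars disagree with each other.

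The full-length models gave a second view of SLC37A4, which lies on chromosome 11, minus strand. The labels call each pool pooled replicates, so the pools are not further replicates. Whether HEK-293T siHNRNPH1 replicate 1 was part of its pool was not examined, and it could not be left out. The models of the 4 pools together span chr11:119024356-119030906 (GRCh38.p13, per the submitters' processing notes). Each pool is a single sample with no read counts, in which a model counts once however abundant it was, so no test was made, and the intervals below cover counting error only. The pools listed 11 models of SLC37A4 in HEK-293T siNegative, 8 in HEK-293T siHNRNPH1, 4 in HT-1080 siNegative and 1 in HT-1080 siHNRNPH1, out of 64705, 94847, 72186 and 68078 models of all genes. A 245-base exon at chr11:119027628-119027872 was skipped in 0 of 11 HEK-293T siNegative models and in 3 of 8 siHNRNPH1 models (37.5%, exact Clopper-Pearson 95% interval 8.52% to 75.5%). The junction of the skipping models joins 119028194 to 119027095, and it was in 0 of the 5 HT-1080 models.

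Further along the transcript, an 86-base exon at chr11:119026603-119026688 was spliced in by 6 and skipped by 4 of the 11 HEK-293T siNegative models, and spliced in by 1 and skipped by 6 of the 8 siHNRNPH1 models. In HT-1080 it was spliced in by 3 of 4 siNegative models and by the single siHNRNPH1 model, which is too few to set against the HEK-293T pools. The 637-base intron between 119025329 and 119025967 was kept by 0 of 11 HEK-293T siNegative and 3 of 8 siHNRNPH1 models, and the 114-base intron between 119025076 and 119025191 by 0 of 11 and 2 of 8. No HT-1080 model kept either of them. The sequence of the 245-base exon also lay inside a longer exon, with an intron kept beside it, in 7 of 11, 3 of 8, 1 of 4 and 0 of 1 models of the 4 pools in the order above. All internal exons and introns of the models were counted, and those described here for SLC37A4 were chosen with their counts known. None of these models was tied to an annotated transcript here, since no genome annotation of this build was used.

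**Figure D5:**
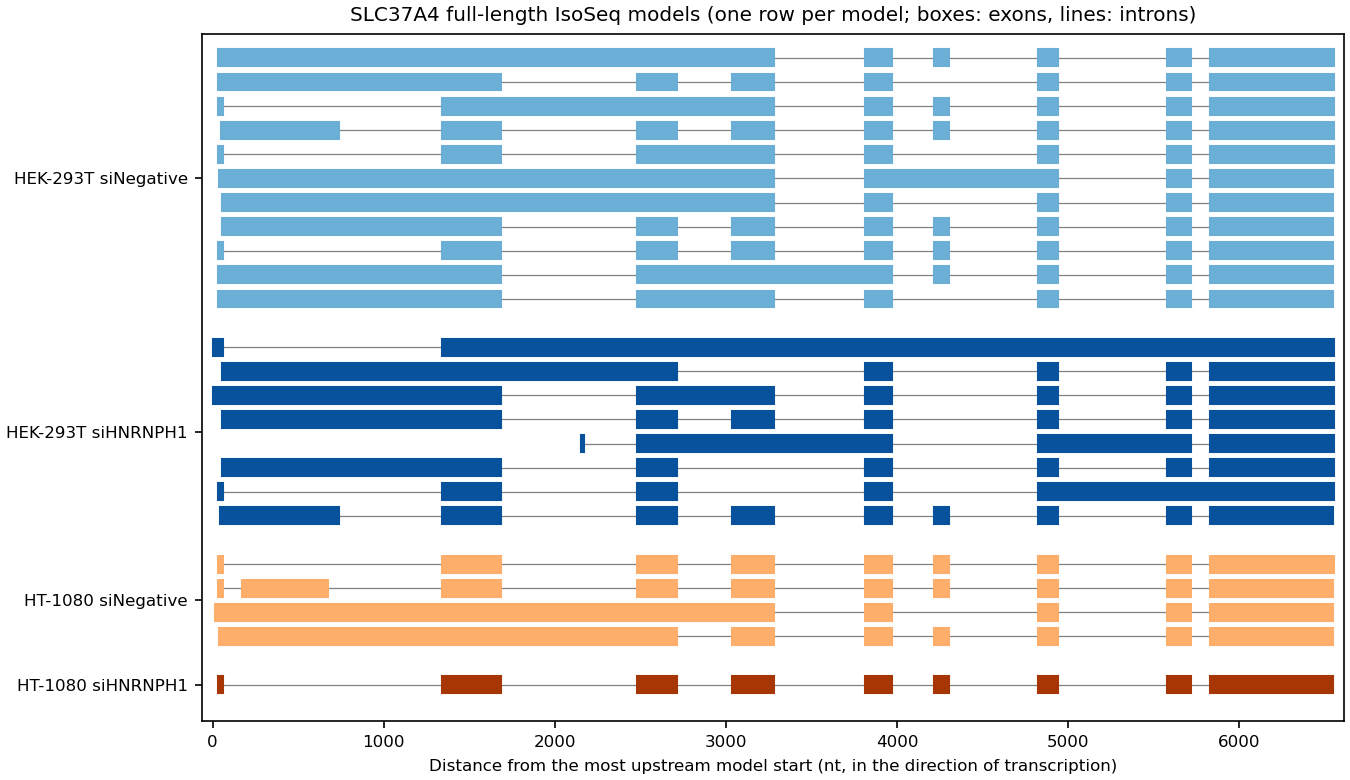
Full-length IsoSeq models of SLC37A4, 1 row per model, grouped by pool, against the distance in bases from the most upstream model start in the direction of transcription. Boxes are exons and lines are introns. The HEK-293T siHNRNPH1 pool holds 3 models that leave out the exon that starts at 3034 bases, and 1 model that splices in the 86-base exon that starts at 4218 bases.

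SLC35A5, on chromosome 3, plus strand, showed no such exchange. Its 3 named transcripts of 7 listed were all lower on the CPM scale. ENST00000492406.6 was at 18.2 ± 0.7 CPM in HEK-293T controls and 3.84 ± 1.48 CPM after knockdown (SD, n = 3), and in HT-1080 at 10.8 ± 2.8 and 3.14 ± 0.84 CPM. ENST00000460713.5 went from 8.15 ± 0.03 to 1.30 ± 0.85 CPM and from 13.1 ± 0.2 to 3.13 ± 0.74 CPM. ENST00000261034.6 went from 13.03 ± 0.48 to 1.51 ± 0.78 CPM and from 21.9 ± 1.9 to 3.52 ± 0.84 CPM. As shares of the gene, the ranges of the groups overlapped for all 3 in HEK-293T and for the first 2 in HT-1080. ENST00000261034.6 held 41.1%, 51.3% and 48.3% in the HT-1080 siNegative libraries and 40.3%, 35.1% and 26.9% in the siHNRNPH1 libraries, just apart. The pools listed 12, 9, 8 and 3 models, in the order HEK-293T siNegative, HEK-293T siHNRNPH1, HT-1080 siNegative and HT-1080 siHNRNPH1, within chr3:112561684-112586760. A 131-base exon at chr3:112570540-112570670 was skipped in 2 of 11, 1 of 9, 3 of 8 and 0 of 3 models that span it.

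For the relatives, transcript usage (the share of a gene held by each transcript) was tested in limma with diffSplice. In HEK-293T, 0 of the 7 passed, where 9.35% of all genes passed, and without siHNRNPH1 replicate 1, 5 passed, where 41.3% did. Those 5 were SLC37A1 (adjusted p = 0.042), SLC37A3 (0.00159), SLC35A2 (0.00614), SLC35A3 (0.00727) and SLC35A4 (0.0388). In HT-1080, SLC37A2 was the single relative called of the 6 that could be tested, where 20.9% of all genes passed, and SLC35A1 had too few transcripts past the filter. On libraries simulated with the spread of all 6 HEK-293T libraries, siHNRNPH1 replicate 1 included, most calls of this test were unchanged genes. That spread is not the one of the fit without replicate 1 or of HT-1080, so it gives no error rate for the genes called in those fits. A simulation with the spread of the HT-1080 libraries was run as well, and its outcome is not reported here. Of the 20 named transcripts of the relatives, 6 in HEK-293T and 5 in HT-1080 had shares whose groups did not overlap, against 32.9% and 28.1% of 27854 transcripts chosen by the same share in well-counted genes. The relatives' transcripts were thus close to the general rate.

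SLC37A2 gave the clearest shift of these in HT-1080. ENST00000354617.5 rose from 4.35%, 7.18% and 10.7% of the gene to 21.3%, 21.5% and 27.7% (usage log2 change 1.99, adjusted p = 3.90e-05). ENST00000403796.7 fell from 65.1%, 70.5% and 61.2% to 54.6%, 52.6% and 50.1% (usage log2 change -0.86, adjusted p = 0.00918). Neither pair of groups overlapped, and the exact permutation test of 3 against 3 libraries gave p = 0.1 for each, the smallest it allows. The gene's call (adjusted p = 3.46e-05) was lost with diffSpliceDGE in edgeR (0.178). In HEK-293T, where the gene had few counts, ENST00000354617.5 was at 0.0%, 30.5% and 0.0% in the siHNRNPH1 libraries, so the shift could not be followed there.

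SLC35A2 and SLC35A3 each had a transcript with a lower share after knockdown in both lines. Neither gene passed the usage test on all libraries of a line, though both passed in HEK-293T without siHNRNPH1 replicate 1, as given above. ENST00000445167.7 held 27.9%, 26.2% and 26.9% of the gene with siNegative and 24.9%, 16.6% and 17.3% with siHNRNPH1 in HEK-293T, and 32.9%, 39.3% and 40.2% against 27.4%, 28.9% and 29.5% in HT-1080. The ranges were apart in both lines (exact permutation p = 0.1 in each). The usage test gave adjusted p-values of 0.65 and 0.304 for the gene SLC35A2, and of 0.642 and 0.178 for this transcript. ENST00000533028.8 of SLC35A3 was also lower in share in both, at 20.6% ± 1.2 and then 12.1% ± 1.1 (SD, n = 3) in HEK-293T, and in HT-1080 at 12.2% ± 0.9 and then 9.47% ± 0.68, with ranges apart. For other transcripts of these genes the ranges were apart in opposite directions or in HEK-293T alone. ENST00000638929.1 of SLC35A3 differed by -9.20 percentage points in HEK-293T and by 2.09 in HT-1080, with ranges apart in each. ENST00000640600.1 of SLC35A3 was 17.4 percentage points higher in HEK-293T, where siHNRNPH1 replicate 1 held 46.0%, far above the other two. ENST00000413561.7 of SLC35A2 was higher by 7.37 percentage points in HEK-293T and by 7.09 in HT-1080. The ranges of these last transcripts overlapped in HT-1080. SLC35A1 and SLC35A4 each had a single named transcript, ENST00000369552.9 with 93.2% to 97.2% and ENST00000323146.8 with 90.9% to 92.2% of the gene in the group means, and neither share differed beyond the spread of the libraries.

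The full-length pools listed fewer models of some relatives than of others, from 0 of SLC37A2 in either HEK-293T pool to 47 of SLC37A3 in HEK-293T siHNRNPH1. Models of SLC35A3 numbered 8 and 20 in the HEK-293T pools and 7 and 10 in the HT-1080 pools (siNegative, then siHNRNPH1). A 146-base exon of SLC37A3 at chr7:140358640-140358785 was skipped in 2 of 31 HEK-293T siNegative models, 8 of 41 siHNRNPH1 models, 0 of 12 HT-1080 siNegative models and 0 of 11 HT-1080 siHNRNPH1 models. It was chosen after its counts were seen. With 1 pool a group, none of these differences has a replicate check.

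SLC37A4 and SLC35A5 each overlap another gene in the RefSeq table (GRCh38.p14, used for names only), and whether the counting used strand is not stated. TRAPPC4, which overlaps SLC37A4, was at 43.8 ± 0.6 and 44.7 ± 15.2 CPM in HEK-293T and at 44.3 ± 4.0 and 48.7 ± 1.1 CPM in HT-1080 (siNegative, then siHNRNPH1; SD, n = 3). Its log2 fold changes of 0.02 and 0.07 did not pass (adjusted p = 0.976 and 0.425), and it was -0.34 (adjusted p = 5.39e-08) in HEK-293T without siHNRNPH1 replicate 1. ATG3, which overlaps SLC35A5, had log2 fold changes of 0.02 (adjusted p = 0.956; -0.13 and 0.00395 without replicate 1) and -0.48 (2.27e-05). Reads of overlapping genes may be shared between them, so a part of these values is uncertain. On the other side, HYOU1 next to SLC37A4 changed by 0.15 (adjusted p = 0.498) and 0.38 (6.44e-05), and CCDC80 next to SLC35A5 by -0.59 (0.0459) and 1.09 (6.36e-08) on the log2 scale. In HEK-293T without siHNRNPH1 replicate 1, HYOU1 was at 0.23 (adjusted p = 8.62e-07) and CCDC80 at -0.51 (1.10e-05). None of the 4 neighbours was lower by as much as SLC37A4 or SLC35A5.

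The genes whose pattern was most like that of SLC37A4 were TDP2 (r = 0.998), SFXN2 (0.997) and GNB1 (0.997), by Pearson's r of log2(CPM + 1) centred within each line, over 12 libraries and 12173 genes. For SLC35A5 they were NUP43 (0.997), HNRNPH1 itself (0.996) and SUCLG2 (0.996). SLC37A4 and SLC35A5 had r = 0.986 with each other. These libraries fall into an siRNA and a control group in each line, which is the contrast that picked both genes, so r describes that contrast above all. The log2 fold changes of TDP2, SFXN2 and GNB1 were -1.43, -1.58 and -1.21 in HEK-293T and -1.24, -1.51 and -1.20 in HT-1080, smaller than those of SLC37A4. Of the relatives, SLC37A2 came closest, with r = 0.832 to SLC37A4 and 0.871 to SLC35A5. SLC37A1 was nearly level with it for SLC37A4, at 0.828, and had 0.795 to SLC35A5. SLC37A3 (-0.738 and -0.640) and SLC35A2 (-0.766 and -0.725) ran opposite.

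Among genes around these carriers, the enzymes of glucose-6-phosphate metabolism, which make or use the substrate of SLC37A4, had 0 calls of 10 tested in HEK-293T and, in HT-1080, 1 higher and 5 lower of 10. Of all genes tested, 5.12% were higher and 4.88% lower in HEK-293T, so that 0 of 10 is near the general rate, and 32.7% were higher and 32.6% lower in HT-1080. H6PD, the dehydrogenase inside the endoplasmic reticulum that draws on the same pool, rose in HT-1080 (0.63, adjusted p = 1.45e-06), and the hexokinases HK1 (-0.48, 4.12e-06) and HK2 (-0.33, 0.000505), PGM2 (-0.54, 6.94e-06), ADPGK (-0.18, 0.00699) and GPI (-0.12, 0.0231) fell. G6PC3, the widely expressed glucose-6-phosphatase, was at 0.21 (adjusted p = 0.701) in HEK-293T and 0.08 (0.218) in HT-1080. Without siHNRNPH1 replicate 1 it was lower in HEK-293T, at -0.21 (adjusted p = 0.000113). The list medians were 0.13 in HEK-293T and -0.13 in HT-1080, against 0.02 and 0.01 for all genes. The genes named from these lists were chosen after their values were seen.

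Of the 22 enzymes that make nucleotide sugars, 1 was higher and 1 lower in HEK-293T, and 5 were higher and 12 lower in HT-1080, where 32.7% of all genes were called higher and 32.6% lower. GNPNAT1, an enzyme on the way to UDP-N-acetylglucosamine, was the gene called higher in HEK-293T (1.24, adjusted p = 0.0169), and it fell in HT-1080 (-0.50, 2.84e-06). The list medians were 0.14 and -0.22.

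The other members of the wide SLC35 family, outside SLC35A, had 3 higher and 1 lower of 21 tested in HEK-293T, and 10 higher and 4 lower of 20 in HT-1080, with medians of 0.02 and 0.21. For this list and the next ones, the shares of all genes called higher and lower were 5.12% and 4.88% in HEK-293T and 32.7% and 32.6% in HT-1080. The HEK-293T calls were SLC35D2 (2.50, adjusted p = 0.0133), SLC35F3 (1.47, 0.0471), SLC35F2 (0.51, 0.0445) and SLC35D3 (-2.51, 0.00795), and in HT-1080 SLC35F3 (-0.51, 0.000168) and SLC35F2 (-0.34, 9.93e-05) fell. None of these genes was called lower in both lines. The Golgi glycosyltransferases that use these sugars had 1 lower of 24 in HEK-293T, B4GALT1 (-0.84, adjusted p = 0.0339), which rose in HT-1080 (1.43, 1.04e-08), and 12 higher and 8 lower of 23 in HT-1080. B4GALT1 transfers galactose from the UDP-galactose that SLC35A2 brings in. A list of other sugar and polyol carriers, of the SLC2A and SLC5A families, had 0 calls of 10 in HEK-293T and 4 higher and 2 lower of 8 in HT-1080, with SLC2A12 (1.44, 4.67e-08), SLC2A11 (1.41, 1.46e-05), SLC2A3 (1.32, 2.08e-08) and the myo-inositol cotransporter SLC5A3 (0.39, 0.0125) higher and SLC2A6 (-1.84, 6.43e-07) and SLC2A8 (-0.69, 0.000231) lower. The medians were -0.07 and 0.23 for the glycosyltransferases and 0.26 and 0.22 for the SLC2A and SLC5A carriers. Without HEK-293T siHNRNPH1 replicate 1, the counts of higher and lower genes in HEK-293T were 4 and 3 of 10 for glucose-6-phosphate metabolism, 10 and 10 of 22 for nucleotide sugar synthesis, 11 and 5 of 21 for the other SLC35 genes, 8 and 10 of 24 for the glycosyltransferases, and 6 and 1 of 10 for the SLC2A and SLC5A carriers, where 30.5% of all genes were called higher and 31.3% lower. The list medians without this library were 0.02, 0.02, 0.12, -0.04 and 0.23 in the same order, against -0.0049 for all genes.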

How the data were processed

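For the short reads, the authors deposited an expected count for every transcript and library, estimated with RSEM, per the labels, with a table for each line. Build GRCh38.p13 is named in the submitters' processing notes. The aligner, annotation release, trimming and strandedness are not given in the sources used here. The authors deposited the IsoSeq data as transcript models with exon positions and no counts per model.

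Transcript counts were summed per gene identifier and rounded, for all 61906 genes. Genes past edgeR's filterByExpr were scaled with TMM factors and put through the robust two-sided quasi-likelihood test of edgeR 4.0.16 (R 4.3.3), in each line on its 6 libraries, and on 12 libraries for the interaction. Log2 fold changes come from this fit and so differ slightly from ratios of CPM. Their SE was derived as the absolute log2 fold change over the square root of the test's F statistic. Adjusted p-values are Benjamini-Hochberg adjusted over all genes tested, with a threshold of 0.05. Transcript usage used diffSplice on voom weights in limma 3.58.1, with a Simes p per gene, and DESeq2 1.42.0 served as an alternative. Shares of single transcripts were compared by an exact permutation test, two-sided.

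Named transcripts hold at least 10% of a gene in the mean of a group. Patterns were compared among genes whose mean count reached 50 in both lines. The genes named are the 9 transporters, HNRNPH1, the 3 most alike genes, the nearest tested neighbours, and list genes chosen after their values were seen. The rule set for list genes had been a call in both lines in the same direction, which the list genes named above do not meet. A result that this rule would name is not reported here. IsoSeq models were assigned to a gene when at least 50% of their exonic bases fell within its RefSeq span. Libraries of the same group differed by more than sampling noise in every pair (chi-square over its degrees of freedom, 1.78 to 848), and none was treated as a copy. In HT-1080, siNegative replicate 2 gave 17.8 and 17.4 against replicates 1 and 3, which gave 1.78 with each other. The tests were tried on simulated data with known changes. The 9 genes, the gene lists and the tests were chosen with earlier results of these data known. With 3 libraries a group, p-values measure the spread between these libraries.

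Deviations of same-numbered libraries of the siRNA groups correlated weakly and above 0, at 0.104, 0.110 and 0.028 in HEK-293T and 0.039, 0.127 and 0.063 in HT-1080. Libraries of different number gave -0.104 to 0.071 in HEK-293T and -0.135 to 0.066 in HT-1080. A shared batch of same-numbered libraries was not tested further. The labels do not say that the number marks one, so the main tests assumed no pairing. A fit with the number as a block is given in the last section.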

Additional observations from a re-analysis of the deposited data

Results flagged for a closer look

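Among the 7 relatives, 2 had a siRNA effect that differed between the cell lines by the interaction test. For SLC37A2 the difference of the log2 fold changes, HT-1080 minus HEK-293T, was 1.02 (adjusted p = 0.00146 in edgeR; 0.93 and 1.12e-05 without HEK-293T siHNRNPH1 replicate 1). All knockdown libraries were below all controls in both lines, with 87 to 145 counts in the HEK-293T knockdown libraries against 593 to 760 in HT-1080. For SLC35A2 the difference was 0.57 (adjusted p = 0.00421; 0.59 and 1.73e-06 without that library), and all knockdown libraries were above all controls in both lines. Whether depth had a part in either difference was not tested.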

How the results depend on the processing

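Of 556 values of single genes recomputed under alternatives, 518 were counted as unchanged and 0 reversed as calls. Another 19 gained and 13 lost a call, and 6 values of the picked genes moved by more than the spread of the libraries. Unchanged means the same side of the threshold or, for the siRNA changes of the picked genes, a move within that spread. An uncalled value could change sign and still count as unchanged, as SLC35A1 did in HEK-293T (-0.03, and 0.01 without siHNRNPH1 replicate 1). The number of genes called in HEK-293T (1997) was 1302 with no filter on low counts, 3982 with DESeq2 and 4551 in a fit of all 12 libraries, and it ran from 0 to 12557 over the fits that leave out 1 library, where a count of 0 came with 3486 to 3517 genes at an unadjusted p under 0.05. In HT-1080 the count (10538) was 6237 in the fit of all 12 libraries. The count for the difference between lines (4036) ran from 2776 (without HT-1080 siHNRNPH1 replicate 3) to 9535 (without HEK-293T siHNRNPH1 replicate 1). Usage calls in HEK-293T (1217) were 704 with diffSpliceDGE and 353 to 5529 without 1 library, and in HT-1080 (2248) they were 584 with diffSpliceDGE and 1498 to 2218 without 1 library, the lowest without siHNRNPH1 replicate 3. Relatives called in HEK-293T (1) ran from 0 to 5 without 1 library. Scaling by library totals alone moved the share of higher genes among calls for the difference between lines from 42.8% to 52.6%. The cause of these shifts was not tested.

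With the replicate number as a block, 0 genes were called in HEK-293T by edgeR (4304 at an unadjusted p under 0.05) and 0 of the relatives, SLC37A2 being at -1.36 (adjusted p = 0.0859). Deviations of same-numbered libraries correlated weakly and above 0, and the labels do not say that the number marks a shared batch. The block is therefore given as an alternative only. Leaving out a HEK-293T siNegative library left 3 siHNRNPH1 libraries, replicate 1 among them, against 2. At a depth of 210 to 218 counts for SLC37A4 in the HT-1080 knockdown libraries, its transcript shares are imprecise.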
